A study of Mus musculus with 16 samples.

Results

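The Mu class glutathione transferases are encoded in the mouse by 7 genes, Gstm1 to Gstm7, which were found by their Entrez identifiers among the 24454 genes of the count table. They were chosen because the Gstm2 count was lower after AICAR, and all 7 genes are described here irrespective of how they moved. A filter on low counts, applied over the whole table, kept 15487 genes and 6 of the 7 members. Gstm3, with 1 to 20 counts per library, did not pass it.

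RNA was sequenced from the gastrocnemius muscle of 16 mice aged 3 months, with 1 library per mouse. HSALR mice, a model of myotonic dystrophy type 1, are homozygous for a human skeletal actin transgene (line LR20b). The transgene carries expanded CTG repeats and is expressed in skeletal muscle. Reads were mapped to the mouse genome, so the transgene has no count of its own. Whether its reads were counted on the mouse actin gene Acta1 was not tested. Control mice were of the FVB/N strain. Mice of both genotypes received vehicle, or AICAR, an activator of the energy sensor AMP-activated protein kinase, at 500 mg/kg for 7 days, which gave 3 control mice after vehicle, 3 control mice after AICAR, 5 HSALR mice after vehicle and 5 HSALR mice after AICAR. HSALR mice model the repeat RNA within muscle fibres of a single transgenic line, not in other tissues. All levels are normalized CPM, the counts of a gene scaled to a common library total, and differences are log2 fold changes.

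Glutathione transferases join the tripeptide glutathione to reactive, electrophilic compounds, which makes these compounds more soluble and ready for export from the cell. The Mu class enzymes are cytosolic and act as dimers, and subunits of the class can pair with each other. Human GSTM2 is known as the muscle form of the class. Several glutathione transferase genes are known targets of Nrf2, a transcription factor that responds to oxidants and electrophiles and binds antioxidant response elements.

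The 7 genes lie together on chromosome 3, within a span of 149326 bases in build GRCm38.p6. Gstm5 (Entrez 14866) lies at chr3:107895854-107898685 on the plus strand, at the edge of the group. The other 6 genes are on the minus strand. In order of position they are Gstm7 (Entrez 68312) at chr3:107926334-107931877, Gstm6 (14867) at chr3:107938847-107953641, Gstm3 (14864) at chr3:107963696-107969174, Gstm2 (14863) at chr3:107981702-107986420, Gstm1 (14862) at chr3:108012250-108017973 and Gstm4 (14865) at chr3:108030571-108045179. RefSeq places 5 other genes inside this span, of which 3 are pseudogenes. Gstm5 overlaps the long non-coding RNA 4933431E20Rik, annotated on the opposite strand, over 360 bases at its 5′ end.

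The coding sequences of the members are similar, and this bears on how far reads can be assigned to each. Gstm2 matched Gstm1 at 86.0% and Gstm6 at 86.3% of aligned coding bases, and the closest pair was Gstm1 and Gstm3 with 89.5%. Gstm5 was the most distant member, with 69.7% to 72.9% identity to the others. The longest coding stretch that Gstm1 and Gstm2 share without a difference is 60 bases long, covers coding positions 193 to 252 of both, and lies in exon 4. It is printed for every member from the GENCODE transcripts, since it shows where a read can and cannot be assigned, with bases that differ from Gstm2 in capitals.
Gstm2 (chr3:107985254-107985313, minus strand): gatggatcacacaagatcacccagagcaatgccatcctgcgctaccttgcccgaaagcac
Gstm1 (chr3:108016526-108016585, minus strand): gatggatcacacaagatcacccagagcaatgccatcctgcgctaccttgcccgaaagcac
Gstm3 (chr3:107967773-107967832, minus strand): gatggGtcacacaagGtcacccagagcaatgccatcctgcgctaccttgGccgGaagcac
Gstm6 (chr3:107942340-107942399, minus strand): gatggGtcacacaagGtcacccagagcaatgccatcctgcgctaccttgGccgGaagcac
Gstm7 (chr3:107930480-107930539, minus strand): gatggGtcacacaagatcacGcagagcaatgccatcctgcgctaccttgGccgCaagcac
Gstm4 (chr3:108043527-108043586, minus strand): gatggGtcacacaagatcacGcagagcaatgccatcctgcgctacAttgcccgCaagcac
Gstm5 (chr3:107897303-107897362, plus strand): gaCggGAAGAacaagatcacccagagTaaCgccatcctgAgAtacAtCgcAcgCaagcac
Gstm3, Gstm4, Gstm6 and Gstm7 each differ from Gstm2 at 4 of these 60 bases, and Gstm3 and Gstm6 are identical to each other here. Gstm5 differs at 14.

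Over the whole transcripts, 11 of the 1015 windows of 50 bases in Gstm2 (1.08%) occur in another member, and that member is Gstm1. For Gstm1 the share is 10.9%, with Gstm2 and Gstm3. Gstm3 shares 15.8% of its windows with Gstm1 and Gstm6, and Gstm6 shares 6.88% with Gstm3, so the low counts of Gstm3 and Gstm6 are uncertain. Gstm4, Gstm5 and Gstm7 share none of their 50-base windows with another member. Transcripts of annotated genes other than the members hold 22.5% of the windows of Gstm1 and 9.36% of those of Gstm2. For Gstm3 and Gstm6 the shares are 24.0% and 7.07%. These genes (Gm6665, Gm8834, Gstm2-ps1, Gm12499 and Gm12494) were not found in the count table. Reads that matched several places equally well were placed at 1 of them, and the read length is not given in the sources used here.

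Gstm1, Gstm5 and Gstm2 made up most of the Mu class mRNA in gastrocnemius. Per kilobase of exon, which allows genes to be compared, Gstm1 was highest in control mice after vehicle with 81.5 ± 3.81 normalized CPM per kb (SD, n = 3), followed by Gstm5 with 59.5 ± 1.67 and Gstm2 with 48.2 ± 4.45. Gstm4 stood at 7.67 and Gstm7 at 3.24 normalized CPM per kb. Gstm6 and Gstm3, at 0.223 and 0.0751, were near the limit of what these libraries can measure, since 1 normalized CPM corresponded to 65.4 to 82.1 counts. In this group no neighbours in the order overlapped in range. The ranges of Gstm6 and Gstm3 overlapped in each of the other groups.

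The leading gene of the class differed between vehicle and AICAR in both genotypes. After vehicle it was Gstm1, with 81.5 normalized CPM per kb in control and 64.4 in HSALR mice against 59.5 and 51.8 for Gstm5. After AICAR it was Gstm5, with 73.3 in control and 71.6 in HSALR mice against 65.6 and 56.9 for Gstm1. Gstm2 followed these genes in each group, at 48.2, 26.4, 23.7 and 15.3 normalized CPM per kb in control mice after vehicle, control mice after AICAR, HSALR mice after vehicle and HSALR mice after AICAR. The order of Gstm1 and Gstm5 is that of the reads as assigned. Of the 50-base windows of Gstm1, 10.9% occur in other members and 22.5% in genes other than the members, against none for Gstm5. How many reads of Gstm1 were placed elsewhere was not tested.

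**Figure D1:**
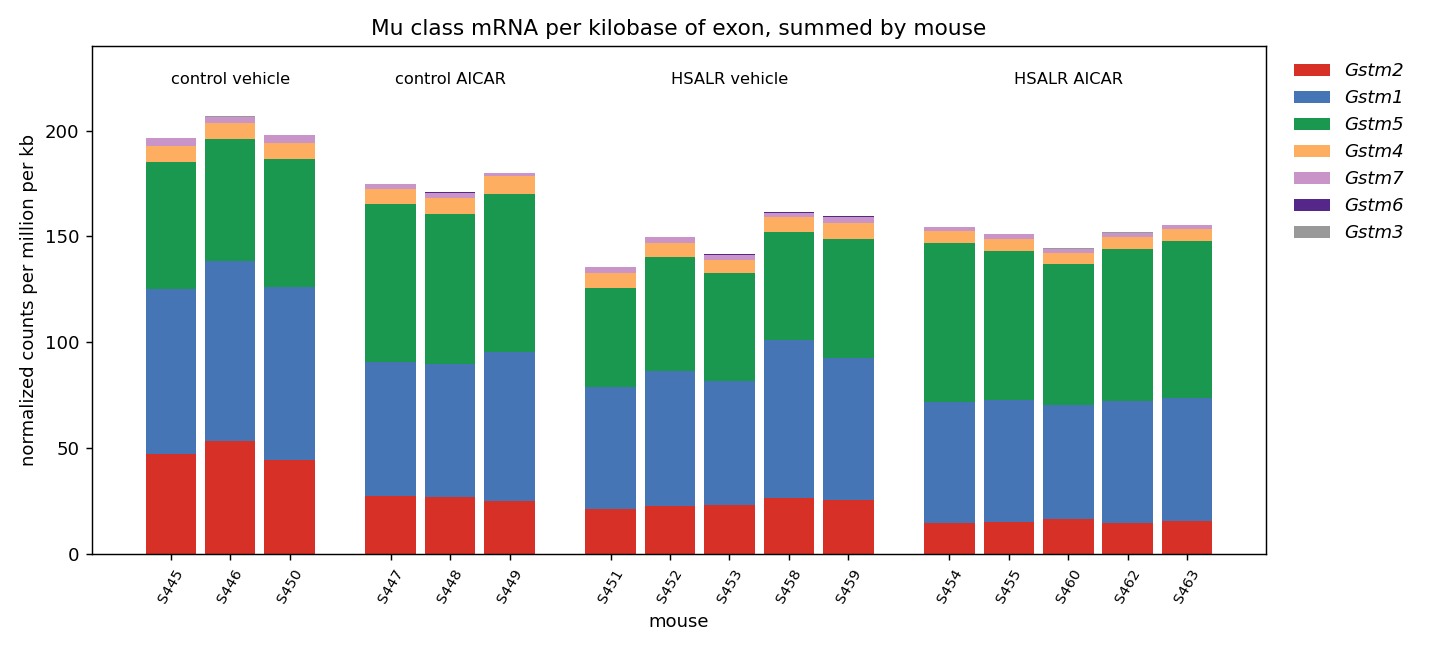
Normalized CPM per kilobase of exon for the 7 members, stacked for each of the 16 mice and grouped by genotype and treatment. The Gstm2 segment is tallest in the 3 control mice after vehicle and shortest in the 5 HSALR mice after AICAR, while the Gstm5 segment is taller after AICAR in both genotypes.

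Summed over the 7 genes, the class stood at 200.5 ± 5.38 normalized CPM per kb in control mice after vehicle (SD, n = 3), 175 ± 4.60 in control mice after AICAR (n = 3), 149.5 ± 11.2 in HSALR mice after vehicle (n = 5) and 151 ± 4.42 in HSALR mice after AICAR (n = 5). Gstm2 held 24.0% ± 1.66 of this sum in control mice after vehicle and 15.9% ± 0.491 in HSALR mice after vehicle. After AICAR its share was 15.1% ± 0.933 in control and 10.1% ± 0.690 in HSALR mice. The share of Gstm5 ran the other way across treatments, from 29.7% ± 1.59 to 41.8% ± 0.562 in control mice and from 34.7% ± 1.75 to 47.2% ± 0.963 in HSALR mice. Gstm1 held between 37.4% and 43.0% in every group mean.

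Gstm2 was lower in HSALR than in control muscle after either treatment. After vehicle, Gstm2 stood at 46.4, 49.5 and 55.6 normalized CPM in the 3 control mice and at 22.3, 23.7, 24.1, 26.5 and 27.7 in the 5 HSALR mice. The groups did not overlap, and the highest HSALR mouse lay far below the lowest control mouse. The log2 fold change was −1.02 (SE 0.07, 95% interval −1.18 to −0.87, edgeR adjusted p = 2.2e-07), a level 0.492 times that of control mice. After AICAR, it stood at 26.3, 27.9 and 28.5 normalized CPM in control mice and at 15.4, 15.5, 15.7, 16.1 and 17 in HSALR mice. Again every HSALR mouse lay below every control mouse, with a log2 fold change of −0.79 (SE 0.07, 95% interval −0.94 to −0.63, edgeR adjusted p = 4.1e-06). These are the same mice from which Gstm2 was chosen for its AICAR contrast, so the genotype contrasts are not separate evidence from other animals.

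Gstm1, the most abundant member after vehicle, had 100.5, 106 and 110.4 normalized CPM in the 3 control mice and 74.5, 76.3, 82.7, 86.7 and 96.3 in the 5 HSALR mice. The groups did not overlap, although 1 HSALR mouse came close to the controls. Gstm1 was lower in HSALR mice by edgeR (log2 fold change −0.34, SE 0.07, adjusted p = 0.0028). After AICAR, Gstm1 stood at 81.4, 82.3 and 91.1 normalized CPM in control mice and at 70.1, 73.9, 74.5, 74.7 and 75.1 in HSALR mice. This difference did not pass the threshold (log2 fold change −0.21, SE 0.07, 95% interval −0.36 to −0.05, edgeR adjusted p = 0.056), although no HSALR mouse reached the lowest control mouse. It passed without HSALR mouse S451 (adjusted p = 0.036) or S458 (adjusted p = 0.021), both given vehicle, and by DESeq2 (adjusted p = 0.023).

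Gstm5, the member encoded on the opposite strand, had 52.5, 54.9 and 55.3 normalized CPM in control mice after vehicle and 42.4, 46.4, 46.8, 49.0 and 51.4 in HSALR mice after vehicle. The log2 fold change was −0.20 (SE 0.06, edgeR adjusted p = 0.02). The call was lost without control mouse S445 (adjusted p = 0.073) and without control mouse S450 (adjusted p = 0.071), and also when only these groups were fitted (adjusted p = 0.058). After AICAR, Gstm5 stood at 64.8, 67.7 and 67.9 normalized CPM in control mice and at 60.5, 64.1, 65.4, 67.8 and 68.2 in HSALR mice, ranges that overlapped. The log2 fold change there was −0.03, with a 95% interval of −0.16 to 0.09 (edgeR adjusted p = 0.71).

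Gstm4 had 12.7, 12.8 and 13.0 normalized CPM in control mice after vehicle and 9.75, 10.7, 11.4, 12.0 and 12.4 in HSALR mice after vehicle. Its log2 fold change of −0.19 (SE 0.07) did not pass the threshold (edgeR adjusted p = 0.072), but passed it without HSALR mouse S459 (adjusted p = 0.037) and by DESeq2 (adjusted p = 0.049). After AICAR, Gstm4 stood at 12.3, 12.3 and 14.0 normalized CPM in control mice and at 9.11, 9.16, 9.33, 9.64 and 9.87 in HSALR mice. Every HSALR mouse was below every control mouse, and Gstm4 was lower by a log2 fold change of −0.45 (SE 0.07, edgeR adjusted p = 0.00065).

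The less abundant Gstm7 and Gstm6 gave no genotype call. Gstm7 ranged from 3.43 to 4.67 normalized CPM in control and from 2.79 to 3.94 in HSALR mice after vehicle, and the log2 fold change of −0.28 had a 95% interval of −0.62 to 0.06. After AICAR it was −0.11 (95% interval −0.46 to 0.24). Gstm6 rested on 3 to 33 counts per library, and its log2 fold changes were −0.62 after vehicle and −0.32 after AICAR, with SEs of 0.38 and 0.44. Leaving out 1 mouse moved the value after vehicle from −0.92 to −0.06, the latter without control mouse S446. Gstm3 averaged 0.0785 normalized CPM over all mice, and in an edgeR fit without the filter its log2 fold changes between genotypes were 0.23 after vehicle (SE 0.65, adjusted p = 0.86) and 0.28 after AICAR (SE 0.72, adjusted p = 0.86), with SEs that exceed the differences.

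**Figure D2:**
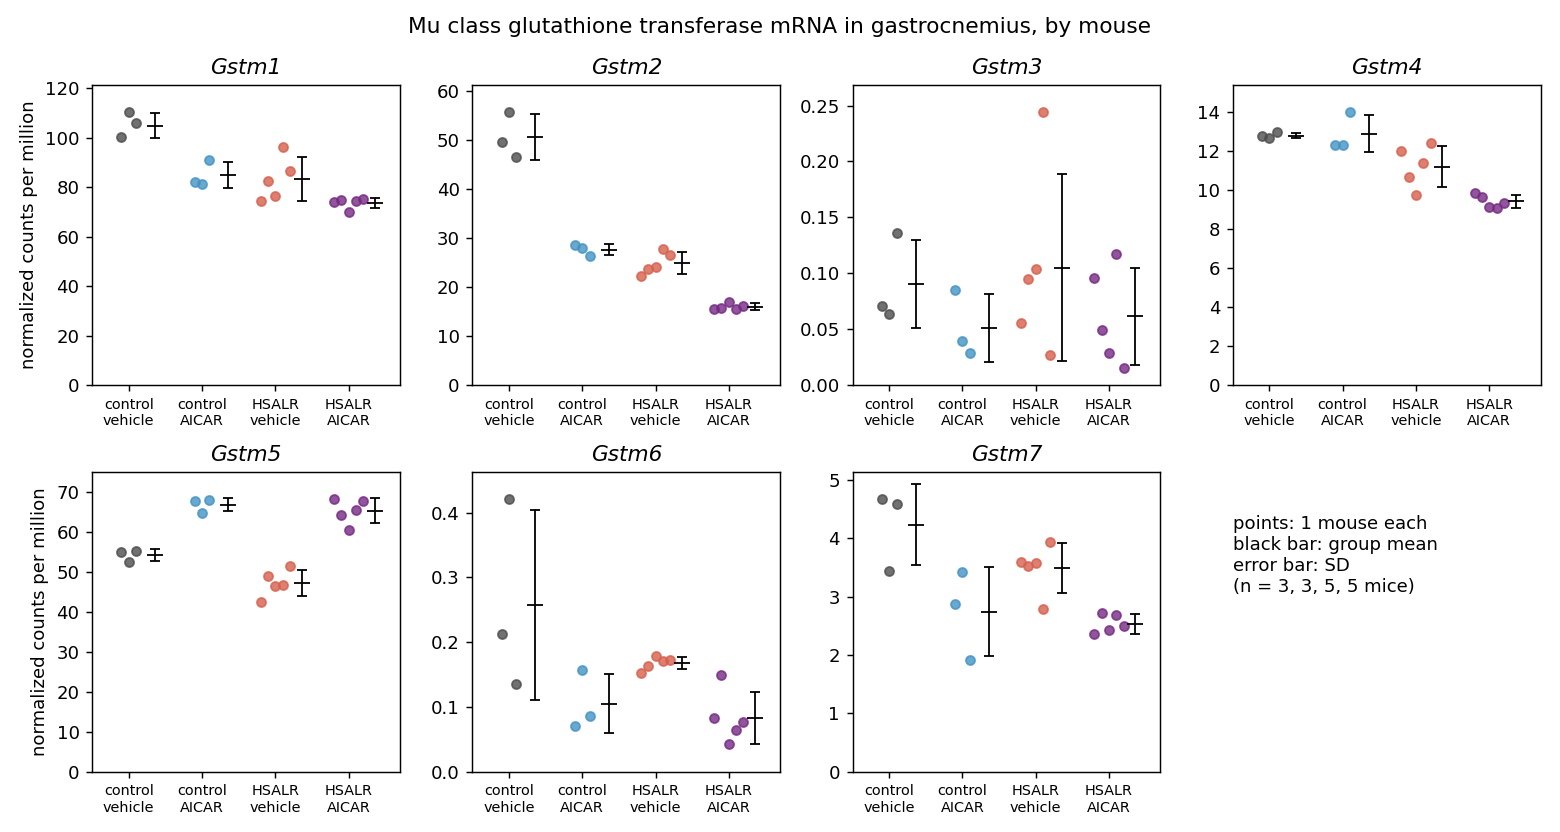
Normalized CPM of each member in each mouse (points), with the group mean and SD (black bars; n = 3 control mice and 5 HSALR mice per treatment); each panel has its own axis from 0. Gstm2 lies between 46.4 and 55.6 in control mice after vehicle and between 15.4 and 17 in HSALR mice after AICAR, and Gstm5 is higher after AICAR in both genotypes.

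In all, 3 of the 6 members tested (Gstm1, Gstm2 and Gstm5) were lower in HSALR than in control muscle after vehicle and none was higher, where 11.5% of all genes tested were called lower. The members' median log2 fold change was −0.31, against 0.01 over all genes tested. With counts scaled to Tbp, a setting added after seeing the data that moved the median of all genes to 0.28, 1.56% of all genes were called lower and 32.6% higher, Gstm2 was the member called (−0.76), Gstm1 stood at −0.07, and Gstm4, Gstm5 and Gstm7 stood at 0.09, 0.08 and 0.02. After AICAR, 2 of 6 (Gstm2 and Gstm4) were lower and none was higher, where 9.64% of all genes were called lower, and the medians were −0.26 and 0.00. Every HSALR mouse was below every control mouse in 4 members after vehicle (Gstm1, Gstm2, Gstm4 and Gstm5), a pattern seen in 13.0% of all genes. After AICAR this held for 3 members (Gstm1, Gstm2 and Gstm4) and for 11.6% of all genes. Without the filter on low values Gstm3 would also enter, so these counts do not describe the whole class.

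Markers of blood vessels moved with the genotype. Of the 8 endothelial markers, 7 were lower in HSALR mice after vehicle, where 11.5% of all genes tested were called lower, and their summed level ran from 333 to 377 normalized CPM in control mice and from 229 to 279.6 in HSALR mice. Of the 7 smooth muscle and pericyte markers, 4 were lower, with sums of 498 to 551 in control and 383 to 430.2 in HSALR mice. After AICAR, where 9.64% of all genes were called lower, 3 of the endothelial markers were lower, with sums of 346 to 357 in control and 272 to 293 in HSALR mice. After AICAR 3 of the smooth muscle and pericyte markers were also lower, with sums of 437 to 525 and 356 to 415, as were 5 of the 8 epidermal markers, with sums of 2.39 to 159 in control and 2.47 to 3.10 in HSALR mice. In other lists after vehicle, 2 of 8 macrophage and 1 of 5 satellite cell markers were higher. Of the 8 adipocyte markers 1 was lower, and of the 14 muscle fibre markers 2 were higher and 2 lower. After AICAR, 2 satellite cell and 2 fibre markers were higher, while 1 fibre marker and 1 of 7 Schwann cell markers were lower. Of all genes tested, 15.4% were called higher after vehicle and 12.2% after AICAR. None of these markers was at 0 in every library, and the part of these cells in the Gstm differences was not tested. In a whole muscle, fewer cells of a type and less RNA per cell cannot be told apart.

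The AICAR contrasts chose Gstm2, so the members' values there are given as a description without tests. In HSALR mice Gstm2 ran from 22.3 to 27.7 normalized CPM after vehicle and from 15.4 to 17 after AICAR, a log2 fold change of −0.64 (SE 0.06). In control mice it ran from 46.4 to 55.6 after vehicle and from 26.3 to 28.5 after AICAR, a log2 fold change of −0.87 (SE 0.08). The vehicle and AICAR groups did not overlap in either genotype. Control mice after AICAR averaged 27.6 ± 1.12 normalized CPM (SD, n = 3) and HSALR mice after vehicle 24.9 ± 2.22 (n = 5), and the ranges of these groups overlapped.

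Gstm5 was the member that was higher after AICAR. HSALR mice had 42.4 to 51.4 normalized CPM after vehicle and 60.5 to 68.2 after AICAR, and control mice had 52.5 to 55.3 and 64.8 to 67.9, with no overlap in either genotype. The log2 fold changes were 0.47 (SE 0.05) in HSALR and 0.30 (SE 0.07) in control mice. The overlapping non-coding RNA 4933431E20Rik stood at 5.15 ± 0.141 normalized CPM in HSALR mice after vehicle and 7.99 ± 1.04 after AICAR, and at 6.10 ± 0.818 and 8.10 ± 1.37 in control mice. The libraries were stranded, but whether strand was used in counting is not given in the sources used here, so reads from the overlap cannot be assigned with certainty to either gene.

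Gstm1 was lower after AICAR by a log2 fold change of −0.31 (SE 0.08) in control mice, where the groups did not overlap. In HSALR mice it was lower by −0.18 (SE 0.06), and the groups overlapped. The HSALR value was −0.02 without the 6 libraries with the keratin gene Krt14 above 1 normalized CPM. That setting leaves out 4 of the 5 HSALR mice after vehicle, so its value rests on a single mouse there. Gstm7 ran from 3.43 to 4.67 normalized CPM after vehicle and from 1.92 to 3.42 after AICAR in control mice, and from 2.79 to 3.94 and 2.35 to 2.72 in HSALR mice. Its log2 fold changes were −0.63 (SE 0.18) and −0.46 (SE 0.14). Gstm4 differed by 0.00 (SE 0.08) in control mice and by −0.25 (SE 0.07) in HSALR mice, where the groups overlapped. For Gstm6 the values were −1.28 (SE 0.46), from −1.70 without S448 to −0.72 without S446, and −0.99 (SE 0.37).

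**Figure D3:**
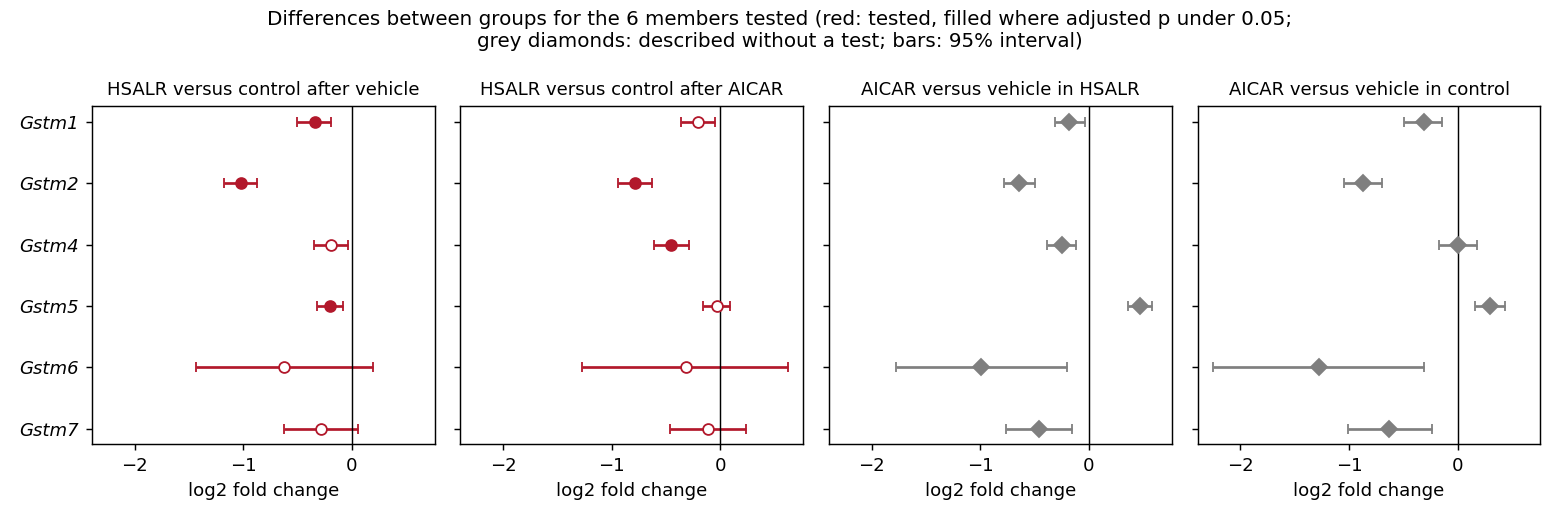
Log2 fold changes of the 6 members tested (points) with 95% intervals (bars) in 4 comparisons; red points were tested and are filled where the edgeR adjusted p was under 0.05, and grey diamonds are described without a test. Gstm2 lies at −1.02 and −0.79 between genotypes, and Gstm5 is the member above 0 in both AICAR comparisons, at 0.47 and 0.30.

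The members' median log2 fold changes were −0.36 in HSALR and −0.47 in control mice, against −0.02 and −0.01 over all genes, for AICAR against vehicle.

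The AICAR effects in the 2 genotypes were set against each other, again as a description, since they are built from the contrasts that chose Gstm2. Their difference (HSALR minus control, on the log2 scale) was 0.23 for Gstm2 (SE 0.10), 0.14 for Gstm1 (SE 0.10), 0.17 for Gstm5 (SE 0.08), −0.26 for Gstm4 (SE 0.11) and 0.17 for Gstm7 (SE 0.23). For Gstm6 it was 0.29 (SE 0.60). For Gstm2, 25 of 26 alternative settings kept the sign, with values of 0.16 to 0.29 when each mouse was left out. The highest value was 0.47, without the 6 libraries with Krt14 above 1 normalized CPM. Scaled to Tbp, which moved the median of all genes to −0.32, the value for Gstm2 was −0.07.

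Other cell markers moved with AICAR in HSALR mice. Of the 8 fibroblast markers, 5 were lower after AICAR, where 13.0% of all genes tested were called lower and 13.7% higher, and their summed level ran from 1661 to 2229 normalized CPM after vehicle and from 1255 to 1714 after AICAR. The endothelial markers had 3 of 8 higher after AICAR, with sums of 229 to 279.6 after vehicle and 272 to 293 after AICAR. Of the 8 macrophage markers, 2 were higher and 1 was lower, with sums of 187 to 257 after vehicle and 201 to 314 after AICAR. In control mice, where 4.77% of all genes tested were called lower, 1 of the 8 fibroblast markers was lower. The sums of the 5 red blood cell markers there were 1219 to 3122 after vehicle and 514 to 865 after AICAR. These sums did not overlap, but 0 of the 5 markers were called. In HSALR mice all 8 epidermal markers were lower, with sums of 3.72 to 287 after vehicle and 2.47 to 3.10 after AICAR. The keratin gene Krt14 exceeded 1 normalized CPM in 4 of the 5 HSALR mice after vehicle and in none after AICAR, and in 1 of 3 mice in each control group. Without these 6 libraries, which leaves a single HSALR mouse after vehicle that is assumed to vary like the other groups, the Gstm2 log2 fold change was −0.48 in HSALR mice and −0.95 in control mice for AICAR, and −1.25 after vehicle and −0.78 after AICAR for genotype. In that setting Gstm1 and Gstm2 were called lower for genotype after vehicle, where 1.66% of all genes were called lower, with Gstm1 at −0.51, Gstm5 at −0.35 (edgeR adjusted p = 0.063) and Gstm4 at −0.10. The AICAR values in HSALR mice were −0.02 for Gstm1, −0.35 for Gstm4, 0.62 for Gstm5 and −0.50 for Gstm7. In control mice they were −0.29 for Gstm1, 0.03 for Gstm4, 0.33 for Gstm5 and −0.77 for Gstm7. The part of fibroblast, macrophage and red blood cell RNA in these values was not tested. The summed levels of the 14 muscle fibre markers, which include Acta1, overlapped between all groups, from 158217 to 216752 normalized CPM.

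The sequences before the start sites of Gstm2 and Gstm5 are printed because these genes moved in opposite directions with AICAR. Bases −100 to −34 from the RefSeq start in GRCm38.p6 are given 5′ to 3′ on each gene's strand, and capitals mark the core of the antioxidant response element, searched as TGACNNNGC on both strands.
Gstm2 (chr3:107986454-107986520, minus strand): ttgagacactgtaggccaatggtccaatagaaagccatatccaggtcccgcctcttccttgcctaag
Gstm5 (chr3:107895754-107895820, plus strand): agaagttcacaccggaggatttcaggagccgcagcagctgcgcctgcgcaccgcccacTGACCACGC
In windows of 300 bases around the RefSeq start sites the core was found for Gstm5, with its first base at position −42, and for Gstm7, at −129 from 1 of its 2 start sites. It was found in none of the windows of Gstm1, Gstm2, Gstm3, Gstm4 and Gstm6. Among 32851 such windows over all genes, 12.4% held the core, and a match is a description of the letters, not of binding.

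Other classes of glutathione transferase gave 2 calls in each of the 4 comparisons of groups. Of the 17 other glutathione transferase genes tested, 2 were higher and none was lower in HSALR mice after vehicle. Of all genes tested, 15.4% were called higher there and 26.9% in either direction. These 2 genes are named next. They were Gsta1, of the Alpha class, which stayed under 2 normalized CPM in every mouse, and Gstz1, of the Zeta class (log2 fold change 0.20, SE 0.07, edgeR adjusted p = 0.037). After AICAR 2 were higher in HSALR mice, where 12.2% of all genes were called higher and 21.8% in either direction. They were Gsta1 and Gstt3, of the Theta class, at 3.86 to 6.30 normalized CPM in HSALR and 2.36 to 2.77 in control mice (log2 fold change 0.93, SE 0.17, edgeR adjusted p = 0.0016).

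After AICAR 2 of the 17 fell in HSALR mice, where 13.0% of all genes tested were called lower and 26.6% in either direction. In control mice 2 fell, where 4.77% were called lower and 13.2% in either direction. Gstk1, the Kappa class enzyme of mitochondria and peroxisomes, fell in both genotypes, from 32.5 ± 1.21 to 27.1 ± 1.69 normalized CPM in HSALR mice (n = 5 each) and from 31.7 ± 1.75 to 25.6 ± 2.01 in control mice (n = 3 each). Its log2 fold changes were −0.26 (SE 0.06, edgeR adjusted p = 0.0031) and −0.31 (SE 0.07, edgeR adjusted p = 0.011). The other calls were Gsto2 in HSALR mice and Gstt3 in control mice. The abundant Gstp1 and the microsomal Mgst3, at 102 and 155 normalized CPM per kb in control mice after vehicle, had log2 fold changes between −0.10 and 0.10 in these 4 comparisons.

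**Figure D4:**
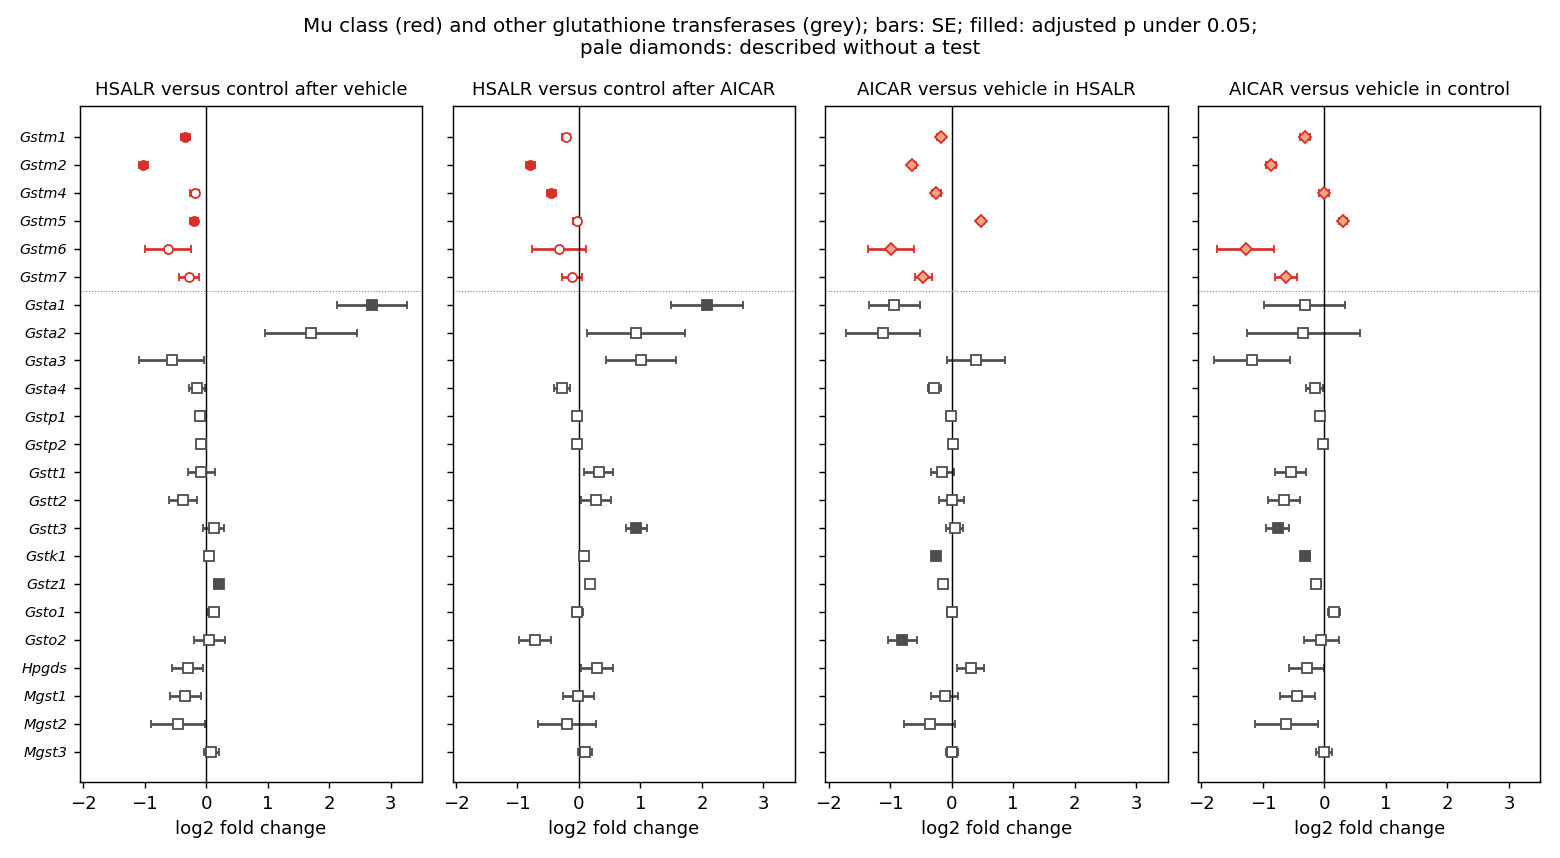
Log2 fold changes (points) with SEs (bars) of the 6 Mu class members tested (red) and 17 other glutathione transferase genes (grey) in 4 comparisons; filled points had an edgeR adjusted p under 0.05, and pale diamonds are described without a test. Gstm2 lies at −1.02 and −0.79 between genotypes, and Gstp1 and Mgst3 lie within 0.10 of 0 in each comparison.

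Genes of glutathione synthesis and use changed in both directions. Of the 35 tested, 7 were higher and 5 lower in HSALR mice after vehicle, 34.3% against 26.9% of all genes tested. Gpx1, a glutathione peroxidase that reduces hydrogen peroxide, was higher, at 72.7 to 86.3 normalized CPM in HSALR and 43.5 to 48.5 in control mice (log2 fold change 0.81, SE 0.07, edgeR adjusted p = 1.2e-06). Hagh, a glyoxalase, and Gpx7 were also higher. Gpx3, the secreted peroxidase, was lower, at 99.2 to 157 normalized CPM in HSALR and 196 to 236 in control mice (log2 fold change −0.77, SE 0.15, edgeR adjusted p = 0.0015), as were the glutathione-degrading Chac1 (−2.03) and the transporter Abcc4 (−0.32).

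After AICAR, 3 of these 35 genes were higher and 3 lower in HSALR than in control mice, 17.1% against 21.8% of all genes tested. Gpx1 was higher again (log2 fold change 0.58, SE 0.07), as were Glrx2 (0.20) and Hagh (0.17). Gclc, the catalytic subunit of the enzyme that limits glutathione synthesis, was lower (−0.34), as were the glutathione reductase Gsr (−0.31) and the amino acid transporter subunit Slc3a2 (−0.21).

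Between AICAR and vehicle, 11 of the 35 genes rose and 7 fell in HSALR mice, 51.4% against 26.6% of all genes tested. In control mice 8 rose and none fell, 22.9% against 13.2% of all genes, of which 8.40% were called higher and 4.77% lower. Among those with a mean count of at least 50, the largest rises in HSALR mice were Abcc5, a transporter (0.99), Pgd, a source of NADPH (0.76), and Dpep1 (0.67). With the same limit, which left out Ggt6 (−1.67, mean count 17.4), the largest falls were Slc1a4 (−1.02), Cth (−0.63) and Gclm, the modifier subunit of the enzyme of glutathione synthesis (log2 fold change −0.51, SE 0.07, edgeR adjusted p = 8.5e-05). In control mice, with this limit, the largest rises were Abcc5 (0.87), Gclc (0.61) and Slc3a2 (0.42).

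Known Nrf2 targets gave calls in both directions, in a list that also holds Nfe2l2, which encodes Nrf2, and its regulator Keap1. Of the 25 tested, 1 was higher and 2 lower in HSALR mice after vehicle, 12.0% against 26.9% of all genes tested. Srxn1, sulfiredoxin, was higher (log2 fold change 1.08, SE 0.13, edgeR adjusted p = 3e-05), while the malic enzyme Me1 (−1.01, SE 0.11, edgeR adjusted p = 1e-05) and the quinone reductase Nqo1 (−0.81, SE 0.10, edgeR adjusted p = 3.7e-05) were lower. After AICAR none was higher and 4 were lower in HSALR mice, or 16.0%. Of all genes, 9.64% were called lower there and 21.8% in either direction. Among them were Nqo1 (−0.69), Me1 (−0.65) and Gclc (−0.34).

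Between AICAR and vehicle, 2 of the 25 rose and 2 fell in HSALR mice, 16.0% against 26.6% of all genes tested, and 6 rose and 3 fell in control mice, 36% against 13.2%. For the difference between the AICAR effects, 1 of the 25 (Srxn1) was called by edgeR, against 0.691% of all genes tested. Hmox1, heme oxygenase, rose in both genotypes, by a log2 fold change of 1.05 (SE 0.25, edgeR adjusted p = 0.0058) in HSALR and 1.65 (SE 0.32, edgeR adjusted p = 0.0041) in control mice. Pgd rose (0.76) and Srxn1 (−0.63) and Gclm (−0.51) fell in HSALR mice. In control mice Gclc (0.61) and the ferritin subunit gene Ftl1 (0.55) rose, and Aox1 (−0.51), Me1 (−0.44) and Nqo1 (−0.36) fell.

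Across the 16 libraries, Gstm1 followed Gstm2 most closely among the members (Pearson r 0.92 of log2 normalized CPM), and the deviations of these genes from their group means had r 0.53. Gstm5 had r −0.35 with Gstm2. Among 12996 other genes with a mean count of at least 50, the 5 most alike Gstm2 were Aldh7a1 (r 0.966), Igfbp5 (0.947), Clk3 (0.946), Tppp (0.940) and Grip2 (0.932). The 5 most opposed were Mrps27 (−0.963), Epdr1 (−0.962), Tmem60 (−0.962), Pde6d (−0.957) and Adprh (−0.956). Igfbp5, an insulin-like growth factor binding protein, had mean levels of 1168, 647, 427 and 252 normalized CPM in control mice after vehicle, control mice after AICAR, HSALR mice after vehicle and HSALR mice after AICAR. These r describe differences between the 4 groups; within groups, r with Gstm2 ran from −0.231 (Clk3) to 0.284 (Tppp) for the first 5 and from −0.621 (Epdr1) to −0.194 (Pde6d) for the other 5.

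The libraries held 64890014 to 81987726 counts each, and their TMM scaling factors ran from 0.906 to 1.06. The muscle fibre markers summed to more than the markers of any other list in every library, and no marker of the lists used was at 0 in all libraries.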

How the data were processed

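Total RNA was extracted with RNeasy columns and made into stranded mRNA libraries. The authors mapped single-end reads to mm10 with STAR 2.5.2a, reporting 1 location for reads with equally good hits, and counted with QuasR the reads starting in any RefSeq exon. The deposited values are whole-number counts per gene without normalization, with a gene length. Of 24454 genes, 24374 were matched to a symbol by Entrez identifier in RefSeq (GRCm38.p6).

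Counts were filtered (filterByExpr), scaled by TMM and fitted with the edgeR 4.0.16 quasi-likelihood test in R 4.3.3, with all 4 groups in a single fit, and adjusted by Benjamini-Hochberg over 15487 genes. A gene was called at an adjusted p under 0.05. DESeq2 1.42.0, limma 3.58.1 with voom, other scalings and filters, and leaving out each mouse were alternatives. The fit was tested on simulated data. Replicate labels are mouse numbers, and each library came from 1 mouse. Transcripts were taken from GENCODE vM21 and aligned with Biopython 1.88; shared sequence was the share of windows of 50 bases found in another member. Correlations used log2 of normalized CPM plus 0.5.

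The members and gene lists were chosen with earlier results of these data known. Named genes were all members, the 3 largest rises and falls past the threshold in each list and contrast with a mean count of at least 50 and the 5 genes most and least correlated with Gstm2; Gsta1, Gsto2, Gstp1 and Mgst3 were named after their values were seen. Depth varied little between libraries, and its effect on precision was not tested.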

Additional observations from a re-analysis of the deposited data

Results flagged for a closer look

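In HSALR mice after AICAR, Gstm1 stood at 70.1 normalized CPM in mouse S460 and between 73.9 and 75.1 in the other 4 mice, a gap that passed Dixon's 95% limit for a single low value. Groups of 5 mice were tested in 12 cases, and chance gives such a gap in about 1 of 20 groups.

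Srxn1, sulfiredoxin, responded to AICAR differently in the 2 genotypes. It stood at 70.6 ± 6.49 normalized CPM after vehicle and 45.7 ± 3.63 after AICAR in HSALR mice (SD, n = 5 each), and at 33.4 ± 2.95 and 48.1 ± 11.8 in control mice (n = 3 each). The difference between the AICAR effects (HSALR minus control) was −1.15 on the log2 scale (SE 0.18, edgeR adjusted p = 0.014). Without the 6 libraries with Krt14 above 1 normalized CPM, a setting chosen after seeing the data, 0 genes passed this test (edgeR; 1485 at an unadjusted p under 0.05), and the Srxn1 difference was −0.91 (SE 0.29, edgeR adjusted p = 0.37) with a single HSALR mouse left after vehicle. Leaving out 1 control mouse raised its edgeR adjusted p to 0.054 (−1.09, without S448) and 0.05 (−1.11, without S445).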

How the results depend on the processing

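For Gstm2, all 27 alternatives kept the direction in both genotype comparisons. The log2 fold change ran from −1.25 to −0.76 for genotype after vehicle (highest adjusted p = 0.00049, over edgeR, DESeq2 and limma) and from −0.83 to −0.76 after AICAR (highest adjusted p = 0.00047). No paired analysis was possible because the groups share no replicate numbers. Leaving out each mouse gave 2214 to 3790 genes called for genotype after AICAR (3379 with all mice), 1143 to 2186 for AICAR in control mice (2039), 15 to 371 for the difference between AICAR effects (107), and 2 to 4 members called for AICAR in control mice (4), where 13.2% of all genes were called with all mice; member counts for AICAR describe the contrasts that served in the choice and are no support. For AICAR in control mice, fitting only these groups called 1164 genes, and DESeq2 called 535 genes for the difference between AICAR effects. The lowest counts came without S447 for genotype after AICAR, without S449 for AICAR in control mice (1214 without S445, 1344 without S448) and without S448 for the difference; 2 members were left for AICAR in control mice without S447. Leaving out each mouse moved the genotype value after AICAR from −0.65 to 0.09 for Gstm6 and from −0.31 to 0.08 for Gstm7, both above 0 without S448. It moved the difference between AICAR effects from −0.27 to 0.72 for Gstm6, below 0 without S446 and without S455 (−0.03), and from −0.03 to 0.37 for Gstm7, below 0 without S449. The next settings were chosen after seeing the data. Without the 6 libraries with Krt14 above 1 normalized CPM, 904 genes were called for genotype after vehicle, 899 for AICAR in HSALR mice, 697 for AICAR in control mice and 0 for the difference (1485 at an unadjusted p under 0.05), with 2 members past the threshold in each AICAR comparison as a description (5.77% of all genes in HSALR and 4.47% in control mice), and the genotype values after AICAR were 0.10 for Gstm6 and 0.08 for Gstm7. Scaled to Tbp, the median of all genes moved to 0.28 for genotype after vehicle and to −0.32 for the difference, with 1396 genes called for genotype after AICAR, 381 for the difference, 1 member for genotype after vehicle and, as a description, 2 for AICAR in control mice, where 13.9% of all genes were called. Against that median of 0.28, the genotype values after vehicle were 0.09 for Gstm4, 0.08 for Gstm5 and 0.02 for Gstm7; against −0.32, the differences between AICAR effects were −0.18 for Gstm1, −0.07 for Gstm2, −0.16 for Gstm5 and −0.17 for Gstm7. With this scaling 5055 genes were called higher and 242 lower for genotype after vehicle (2385 and 1784 with TMM); with library size alone 1327 were higher and 2962 lower for AICAR in HSALR mice (2114 and 2007 with TMM). Shared sequence of the members was 7.67% in windows of 36 bases and 1.16% in windows of 100 bases, against 5.11%. The causes of these changes were not tested. Gstm3 and Gstm6 had few counts, at most 20 and 33 per library.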
